A study of Mus musculus with 3 samples.

Results

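The comparison described is that of mouse liver after 90 min of warm ischemia and 120 min of reperfusion (IR) with liver after 90 min of warm ischemia alone (WI), by mRNA-seq with 1 library in each group. Genes were joined between the IR and WI tables on symbol and locus, and a gene entered when its FPKM (fragments per kilobase of transcript, scaled to the mapped fragments) was at least 1 in at least 1 of the WI and IR libraries. Genes on the X and Y chromosomes, the major urinary protein (Mup) genes and genes without the status OK were left out, which kept 10244 of the 23361 genes in the tables. The mice were labelled male C57BL/6J of 8 to 10 weeks and were fasted for 12 h. In the WI and IR groups a clamp on the vessels and bile duct of the left and median lobes stopped the flow to 70% of the liver, with a midline laparotomy under chloral hydrate. The IR mice then recovered without further anesthetic after the clamp was removed, while the sham mice had the laparotomy without the clamp. Groups of 6 mice are given in the study's methods, without saying if the RNA of several mice was pooled for sequencing.

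With 1 library in each group no difference has a replicate check, no test was run, and the 95% bounds deposited with each FPKM reflect the model of the counts and not the spread between mice. The sham liver is not a time-matched control for IR, so reperfusion and the added time after surgery and anesthesia cannot be told apart. The libraries also go against their labels on sex. Xist, the RNA made from an inactive X chromosome, had an FPKM of 18.9 in the library labelled sham, 20.1 in the library labelled WI and 1.29 in the library labelled IR. The Y-linked genes Ddx3y and Eif2s3y had FPKM values of 8.58 and 13.2 in IR, 0.0085 and 0 in WI, and 0 in sham. For genes whose level in liver depends on sex, sex and reperfusion cannot be told apart.

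During warm ischemia the liver loses oxygen and substrate, and transcription that needs ATP slows. When blood returns, hepatocytes meet reactive oxygen species and unfolded protein, resident macrophages sense molecules released from injured cells, and the endothelium and hepatocytes produce chemokines that draw neutrophils from the blood. The early transcripts of this response are those of immediate early transcription factors, chaperones, antioxidant enzymes and cytokine feedback inhibitors.

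A change is the difference in log2(FPKM + 1), IR minus WI, and a gene is counted as higher or lower when FPKM + 1 differed at least 2-fold. Of the 10244 genes, 594 were higher in IR (5.8%) and 139 were lower (1.36%). Bounds that did not overlap as well were found for 321 of the higher genes (3.13%) and 33 of the lower genes (0.322%), so the bounds of 273 higher and 106 lower genes overlapped. The median change was 0.03, 53.1% of the genes had a change above 0, the quartiles were -0.26 and 0.34, and 5% lay below -0.68 and 5% above 1.08. The large changes were on the side of IR, since 158 genes were at least 4-fold higher and 8 at least 4-fold lower, and 25 were at least 16-fold higher. Among the higher genes the median FPKM was 3.48 in WI and 14.8 in IR, and 153 had an FPKM under 1 in WI. Among the lower genes it was 13.4 in WI and 4.69 in IR.

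The split depends on the scale. FPKM summed to 487912 in WI and to 712423 in IR, and after both libraries were rescaled to a common sum (TPM) 365 genes were higher and 1158 lower, so higher genes made up 24.0% of those counted against 81.0% on the FPKM scale. The minimum of 1 was applied again after rescaling, which kept 11230 genes with a median change of -0.45. Over the 10244 genes of the main comparison the rescaling gave 360 higher and 1138 lower, with the same median. The Mup genes held 10271 of the summed FPKM in WI and 89648 in IR, and the sum without them still went from 477641 to 622775. Changes above 0 that are smaller than about 0.5 can take the other sign on the TPM scale, and the medians of gene groups are given on both scales where the sign differs.

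**Figure D1:**
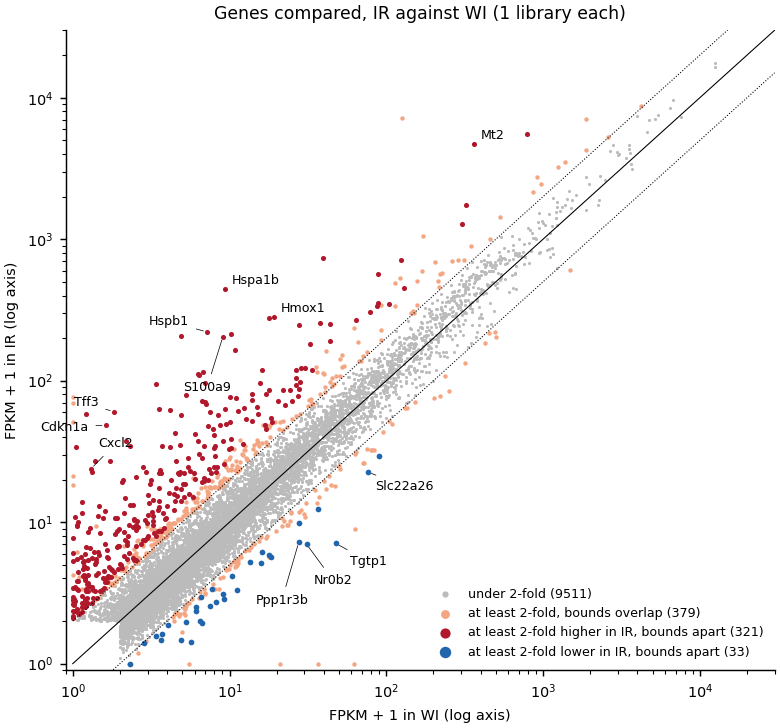
FPKM + 1 in WI (horizontal, log axis) and IR (vertical, log axis), 1 point per gene, for the 10244 genes compared, with lines at equality and at 2-fold. The 321 higher genes with bounds apart (red) outnumber the 33 lower ones (blue), and Hspa1b, Tff3 and Mt2 stand far above the line.

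The largest changes among genes whose bounds did not overlap came from several functions. Of the 15 largest rises, Hspa1b, Hspa1a and Hspb1 encode chaperones, Cdkn1a an inhibitor of the cell cycle, S100a8 and S100a9 the calprotectin of neutrophils, Cxcl2 a neutrophil chemokine, Cd14 a receptor for bacterial lipopolysaccharide, and Hilpda a lipid droplet protein induced by hypoxia. Tff3, a secreted trefoil peptide of mucous epithelia, had an FPKM of 1.15 in sham, 0.823 in WI and 59.3 in IR (change 5.05). Chka, choline kinase, had 2.83, 2.39 and 94.5 in the same order (change 4.82), and Niacr1, the nicotinic acid receptor, had 0.711, 0.39 and 26.0 (change 4.28). Both were therefore low in sham and WI and high in IR. Cyp4a12a, Cyp4a12b and Cyp2d9, with changes of 5.58, 5.02 and 4.23, complete the 15 and are male-biased liver genes, for which the sex of the libraries cannot be told apart from reperfusion.

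The 15 largest falls were smaller. The interferon-induced genes Tgtp1 (-2.75), Gm4841 (-2.01), Gbp1 (-1.74), Gbp10 (-1.69) and Gvin1 (-1.68) were 5 of them. Nr0b2, the nuclear receptor SHP that represses bile acid synthesis, changed by -2.15. Ppp1r3b and Ppp1r3c, which bring protein phosphatase 1 to glycogen, changed by -1.94 and -1.68. Ppp1r3b had an FPKM of 39.5 in sham, 26.6 in WI and 6.20 in IR, so IR lay below both other libraries. Usp2, a ubiquitin-specific protease with a daily rhythm, changed by -1.62. The others were Sult2a3 and Slc22a26, which are on the sex-biased list, and 4930470H14Rik, Slc10a5, Rdh9 and Pcp4l1, with changes from -1.77 to -1.58.

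At the 2-fold limit, the genes just inside on the higher side were Alkbh2 (FPKM 2.24 in WI and 5.49 in IR), Chmp4b (33.0 and 67.1) and Gdf15 (22.4 and 45.9), and just outside Pawr (4.96 and 10.9), Cdc20 (0.575 and 2.15) and Mbd1 (6.33 and 13.6). On the lower side they were Taok3 (11.6 and 5.27), Cyb5b (103 and 51.0) and Hlf (9.06 and 3.998) inside, and Cd180 (1.52 and 0.264), Slc13a3 (10.2 and 4.63) and Bcar3 (11.99 and 5.50) outside. A further 8 genes were listed at 0 in 1 library and at 5 or more in the other. Among them 6 were small nucleolar RNA genes (Snora64, Snord22, Snora16a, Snora21, Snora28 and Snora34) whose lower bound was 0 also where they were detected, and Atp6v0c-ps2 had a lower bound of 0 as well. Gm5483, which was listed at 0 in WI and at 5.01 in IR (bounds 1.38 to 8.64), was the exception.

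To show the letters in front of the genes whose groups the comparison turns on, stretches upstream of the transcription start were taken from RefSeq on GRCm38.p6, the build (mm10) of the deposited coordinates. A window of 250 bases before the start was found for 8119 of the 10244 genes (79.3%). In all 12 motifs were searched on both strands in 10 lists, and the stretches below were chosen because they hold a match, so they are examples and no measure of how often a match occurs. A match is a description of letters and not a binding site. The first set shows the interferon-stimulated response element (GAAA, 2 bases of any kind and GAAA) in capitals, in 5 interferon-induced GTPases whose FPKM was at least 2-fold lower in IR, on either strand.
Tgtp1: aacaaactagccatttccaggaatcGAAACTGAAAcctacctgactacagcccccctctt
Tgtp2: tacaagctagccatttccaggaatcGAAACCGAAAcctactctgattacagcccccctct
Irgm2: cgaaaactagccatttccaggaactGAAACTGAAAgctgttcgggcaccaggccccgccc
Igtp: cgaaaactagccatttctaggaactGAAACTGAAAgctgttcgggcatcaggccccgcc
Gbp7: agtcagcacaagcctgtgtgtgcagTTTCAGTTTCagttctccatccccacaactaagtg
These stretches are chr11:48992289-48992348 (minus strand) for Tgtp1, chr11:49064248-49064307 (minus strand) for Tgtp2, chr11:58214888-58214947 (plus strand) for Irgm2, chr11:58199497-58199555 (plus strand) for Igtp, chr3:142530258-142530317 (plus strand) for Gbp7. The motif was in 233 of the 8119 windows (2.87%). It was in each of the 9 GTPases of the list that have a window, but those are 9 of 17 compared, under 80%, so a share for the list is void. The 9 include Gbp5 and Irgm1, whose changes were 0.74 and 0.06, so the motif is also held by members without a lower level. Tgtp1 and Tgtp2, and Irgm2 and Igtp, are pairs of close copies whose stretches share most of their letters and are not separate instances.

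The next set shows the NF-kB site in capitals (overlapping matches are joined) in 3 NF-kB feedback inhibitors and 3 chemokines, taken from the largest change down among members with a match. Nfkb2 is shown although its change (0.97) was under 2-fold.
Tnfaip3: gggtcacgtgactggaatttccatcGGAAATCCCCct
Tnip1: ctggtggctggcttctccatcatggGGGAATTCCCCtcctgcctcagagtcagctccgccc
Nfkb2: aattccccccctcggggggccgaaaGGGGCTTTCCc
Cxcl2: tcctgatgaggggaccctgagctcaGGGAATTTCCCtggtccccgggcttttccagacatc
Cxcl1: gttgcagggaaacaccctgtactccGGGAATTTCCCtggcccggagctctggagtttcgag
Cxcl3: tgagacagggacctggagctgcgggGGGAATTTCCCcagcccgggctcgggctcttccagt
These stretches are chr10:19015411-19015447 (minus strand) for Tnfaip3, chr11:54962962-54963022 (minus strand) for Tnip1, chr19:46304701-46304736 (plus strand) for Nfkb2, chr5:90903777-90903837 (plus strand) for Cxcl2, chr5:90891149-90891209 (plus strand) for Cxcl1, chr5:90786003-90786063 (plus strand) for Cxcl3. The site was in 374 of the 8119 windows (4.61%), in 6 of the 10 feedback inhibitors with a window (of 13 compared) and in 5 of the 13 chemokines with a window (of 19 compared), both under 80%, so those shares are void as well. Cyld and Ccl9, whose changes were -0.52 and -0.04, also held the site, so it is not particular to members with a higher level. The last set shows the metal response element core (TGCACNC or TGCGCNC) in Mt2 and Mt1 and the STAT site TTCNNNGAA in Socs3.
Mt2: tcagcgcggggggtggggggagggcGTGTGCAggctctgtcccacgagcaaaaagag
Mt1: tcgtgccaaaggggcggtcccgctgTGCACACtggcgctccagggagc
Socs3: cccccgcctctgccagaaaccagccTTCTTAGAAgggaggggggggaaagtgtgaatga
These stretches are chr8:94172543-94172599 (plus strand) for Mt2, chr8:94179041-94179088 (plus strand) for Mt1, chr11:117969487-117969545 (minus strand) for Socs3. The metal core was in 2435 of 8119 windows (30.0%). It was also held by the zinc transporters Slc30a1 and Slc30a10, whose changes of -0.14 and 0.70 were under 2-fold, so it is not particular to the metallothioneins. The STAT site was in 489 windows (6.02%), and 2 of the 13 IL-6 family windows held it. Besides Socs3 this was Bcl6, whose change was -0.70, so the site is also held by a member without a higher level. For the heat shock list, 16 of 20 genes had a window. The heat shock element was first searched as 3 alternating units of GAA and TTC, each 2 bases apart, which 2 of the 16 held against 29 of 8119 (0.357%). It was then searched again as 2 units (GAANNTTC or TTCNNGAA) after that count was known, and 8 of the 16 held this shorter form against 871 of 8119 (10.7%). The shorter form was thus chosen after seeing the first result. The long form was held by Hspd1 and Hspe1, whose windows had the same counts of both forms and may not be separate instances. Hspa1a, Hspa1b and Hspb1 did not hold it. The 8 with the shorter form include that pair, the near-identical copies Hspa1a and Hspa1b, and Fkbp4, whose change was -0.26.

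Lists of genes of known function were compared by counts and medians, and 776 of their 873 genes were among those compared. Of the genes higher in IR 223 were on a list and 371 were not, and of the lower genes 45 were and 94 were not. Several members are also on the study's own list of changed genes for these libraries, so the lists are not independent evidence of direction. In all, 15 of the 43 lists with at least 3 genes compared had a median at or beyond 1 in size, and 9 did on the TPM scale. Counts of higher members depend on the scale as well. On the TPM scale 9 of 20 heat shock genes, 6 of 20 in the Myc list and 3 of 16 NRF2 targets were higher. So were 4 of 14 NF-kB feedback inhibitors, while the AP-1 list kept 12 higher. Genes under FPKM 1 in WI entered through IR, where they had to be higher. Genes under FPKM 1 in IR entered through WI, where they had to be lower. Counts and medians of lists with many such members are descriptions that support no direction, and the same is given for members with FPKM of at least 1 in both libraries. With those members alone, the median fell below 1 for the unfolded protein list (0.83) and for interleukin-1 and TNF (0.76). It also did for adhesion (0.52), bile duct (0.64) and matricellular genes (0.76), and the others of the 15 stayed at or beyond 1 in size.

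**Figure D2:**
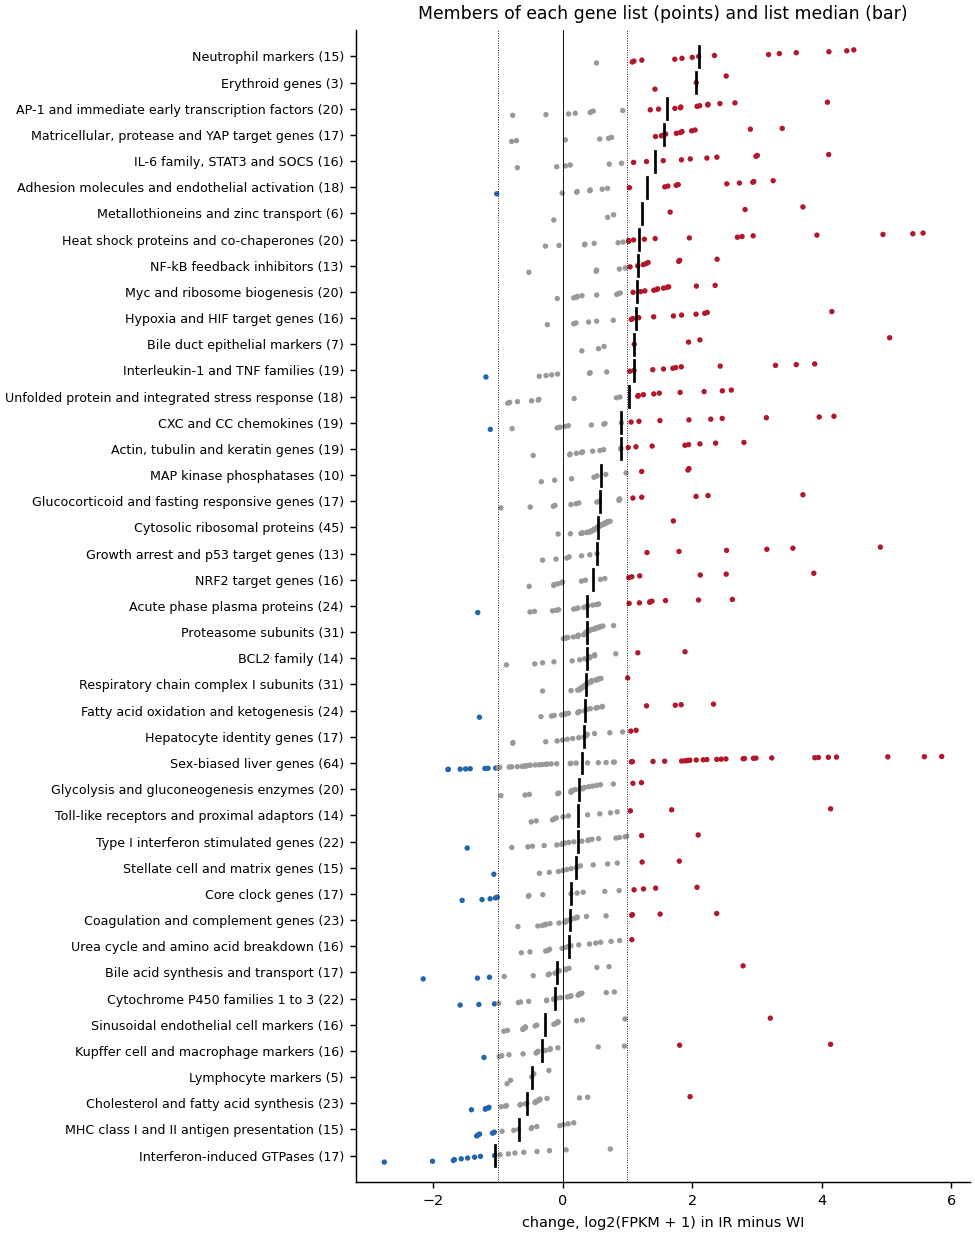
Change from WI to IR (horizontal, log2 scale) of every compared member of each list (points, number in brackets) with the list's median (bar) and lines at 0 and at 2-fold. Neutrophil markers lie highest with a median of 2.10 and interferon-induced GTPases lowest with a median of -1.05.

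Heat shock proteins, the chaperones that heat shock factor 1 induces when proteins unfold, included 3 of the 15 largest rises. Of 20 compared, 13 were higher, 0 were lower and 9 of the higher had bounds apart (median 1.18). Hspa1b had an FPKM of 1.99 in sham, 8.36 in WI (bounds 4.42 to 12.3) and 442 in IR (140 to 743), and its near-identical neighbour Hspa1a had 0.425, 3.89 and 206. IR exceeded both other libraries for each. The counting could divide reads between these copies, so their separate values are uncertain. Hspb1, the small heat shock protein HSP27, had 7.77, 6.17 and 220, and Dnajb1, a co-chaperone of HSP70, had 7.23, 9.87 and 164. Hsp90aa1, Hsph1 and Bag3 changed by 2.77, 2.94 and 2.70. Hspd1, the mitochondrial chaperonin, had 179, 194 and 352 (change 0.86) with overlapping bounds.

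Immediate early transcription factors of the AP-1 group and related families had 12 of 20 members higher, 0 lower and 11 with bounds apart (median 1.61). Atf3, a stress-induced repressor, had an FPKM of 8.72 in sham, 5.76 in WI and 114 in IR (change 4.09). Ier3, Maff, Klf6 and Junb changed by 2.66, 2.43, 2.24 and 2.12. Fos had 8.31, 28.9 and 40.6 (change 0.47) and Egr1 60.2, 64.9 and 88.6 (change 0.44), both under 2-fold. Among MAP kinase phosphatases, which switch off the kinases upstream of AP-1, 3 of 10 were higher and 0 lower (median 0.60), namely Dusp8, Dusp5 and Dusp4 at 1.95, 1.94 and 1.22. All 3 entered through IR, and 0 of the 5 members with FPKM of at least 1 in both libraries were higher (median 0.14).

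Growth arrest and p53 target genes had 6 of 13 higher and 0 lower (median 0.53), and 5 had bounds apart. Cdkn1a, which encodes p21, had an FPKM of 21.5 in sham, 0.619 in WI (bounds 0.161 to 1.08) and 47.5 in IR (25.1 to 69.9). WI was thus the low library of the 3. Gadd45g had 93.6, 26.9 and 247 and Gadd45b 12.6, 3.90 and 56.6, in the same pattern with sham between WI and IR. Mdm2 and Ccng1, also p53 targets, changed by 0.07 and -0.10.

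Myc and genes for making ribosomes had 11 of 20 higher and 0 lower (median 1.15), and 7 had bounds apart. Myc, the transcription factor that drives these genes, had an FPKM of 7.42 in sham, 2.03 in WI and 14.5 in IR. Nop58, a core protein of box C/D small nucleolar particles, had 7.31, 7.02 and 32.6. Rrp12, Gnl3 and Heatr1 changed by 1.64, 1.61 and 1.56, while Fbl and Ncl, which were more abundant in WI, changed by 0.30 and 0.17. The cytosolic ribosomal proteins themselves had 1 of 45 higher (Rpl26, at 1.71, a gene with many processed copies) and a median of 0.55 that went to 0.00 on the TPM scale.

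Targets of NRF2, the sensor of oxidants and electrophiles, had 6 of 16 higher and 0 lower, and their median of 0.47 was -0.07 on the TPM scale. Hmox1, heme oxygenase 1, had an FPKM of 22.6 in sham, 18.1 in WI and 280 in IR (change 3.88). Srxn1, which repairs oxidised peroxiredoxin, had 10.6, 13.0 and 79.5 (change 2.53) and Sqstm1, the autophagy receptor p62, 110, 122 and 535 (change 2.13, bounds overlapping). Gclm and Nqo1, also targets of NRF2, had changes of -0.14 and -0.08.

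Metallothioneins and zinc transporters had 3 of 6 higher and 0 lower (median 1.22). Mt2, a small protein that binds zinc and copper, had an FPKM of 1493 in sham, 359 in WI (bounds 186 to 533) and 4713 in IR (1285 to 8140), and its close copy Mt1, with which it can share reads, had 1829, 788 and 5558. Both were lowest in WI and highest in IR. Slc39a14, which imports zinc and iron into hepatocytes, had 41.9, 35.2 and 113.

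Genes of the unfolded protein and integrated stress responses had 9 of 18 higher and 0 lower (median 1.02). Of the higher members 3 entered through IR, and 6 of the 15 with FPKM of at least 1 in both libraries were higher (median 0.83). The higher members included the ATF4 targets Chac1 (2.60), Ppp1r15a (2.47), Asns (2.18) and Ddit3 (1.81). Asns, asparagine synthetase, had an FPKM of 0.0649 in sham, 0.176 in WI and 4.34 in IR, and so entered through IR. Sel1l, Sdf2l1 and Pdia4, which fold or degrade proteins in the endoplasmic reticulum, had changes of -0.85, -0.82 and -0.70, none past 2-fold on the FPKM scale. On the TPM scale 6 of the 18 members were higher and 4 lower (median 0.56). Hspa5, the chaperone BiP, had 151, 209 and 372 (change 0.83).

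Hypoxia and HIF target genes had 10 of 16 higher and 0 lower (median 1.13), and 8 had bounds apart. With FPKM of at least 1 in both libraries 7 of 12 were higher (median 1.44). Hilpda had an FPKM of 8.21 in sham, 2.54 in WI and 62.1 in IR (change 4.16). Slc2a1, the glucose transporter GLUT1, had 6.01, 4.40 and 23.7, and Angptl4, an inhibitor of lipoprotein lipase, had 122, 63.5 and 268. All 3 were higher in IR than in both other libraries. Vegfa, Egln1 and Egln3 changed by -0.23, 0.17 and 0.21. Glycolysis and gluconeogenesis enzymes had 2 of 20 higher, Aldoa (1.22) and Pkm (1.09), and a median of 0.25 that was -0.23 on the TPM scale.

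Feedback inhibitors of NF-kB, which the factor induces and which then restrain it, had 8 of 13 higher and 0 lower (median 1.16). Bcl3, a nuclear inhibitor of the IkB family, had an FPKM of 4.81 in sham, 8.45 in WI and 48.4 in IR (change 2.39). Tnfaip3, a ubiquitin-editing enzyme, had 1.45, 1.15 and 6.51. Tnip2 and Tnip1 changed by 1.79 and 1.32. Nfkbia, the first inhibitor to respond, had 32.5, 25.6 and 47.8, with bounds that overlapped (change 0.88). Among Toll-like receptors and their adaptors 3 of 14 were higher, namely Cd14 (5.31 in WI and 110 in IR), Myd88 (change 1.68) and Ly96 (5.34 and 12.1). The receptors Tlr4 and Tlr2 changed by 0.01 and 0.84, and the median of 0.24 was -0.18 on the TPM scale.

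Chemokines had 9 of 19 higher and 1 lower (median 0.91), but 5 of the higher entered through IR, and with FPKM of at least 1 in both libraries 4 of 12 were higher (median 0.36). Cxcl2, which draws neutrophils through CXCR2, had an FPKM of 0.591 in sham, 0.308 in WI and 22.8 in IR (change 4.19, bounds apart). Cxcl1, a ligand of the same receptor, had 8.13, 21.1 and 84.3, and Cxcl3 was listed at 0 in sham and WI and at 1.83 in IR. Each of these 3 ligands of CXCR2 was highest in IR, but Cxcl2 and Cxcl3 entered through IR. The monocyte and lymphocyte attractants Ccl4, Ccl3, Ccl7 and Ccl2 changed by 3.96, 3.15, 2.46 and 2.29. Cxcl12, made by stromal and endothelial cells, had 119, 151 and 69.3 (change -1.12) and was the lower member.

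The interleukin-1 and TNF families had 11 of 19 higher and 1 lower (median 1.10), and the 2 largest changes were of inhibitors. Of the higher members 5 entered through IR, and 6 of the 12 with FPKM of at least 1 in both libraries were higher (median 0.76). Il1rn, the receptor antagonist, had an FPKM of 4.65 in sham, 3.20 in WI and 61.3 in IR (change 3.89). Il1r2, the decoy receptor, had 0.134, 0.146 and 13.0 (change 3.61), and Il1r1, the signalling receptor, had 17.9, 6.05 and 67.8 (change 3.29). Il1b itself had 4.24, 7.29 and 23.4 (change 1.56). Il33, an alarmin, changed by 2.43, and Tnfsf10, the death ligand TRAIL, was lower (-1.18). Tnf was under FPKM 1 in both libraries and was not compared. Il1r2 is also a neutrophil marker.

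The IL-6 family with STAT3 and its feedback inhibitors had 10 of 16 higher and 0 lower (median 1.42), with 8 whose bounds were apart. With FPKM of at least 1 in both libraries 7 of 13 were higher (median 1.10). Socs3, the inhibitor that STAT3 induces, had an FPKM of 3.14 in sham, 5.38 in WI (bounds 2.73 to 8.02) and 109 in IR (50.5 to 167). Cebpd, a factor of the acute phase, had 9.64, 3.20 and 32.8, and Pim1 had 5.23, 4.48 and 27.5. Socs2 and Cish, at 2.98 and 2.23, are targets of growth hormone and are also on the sex-biased list. The receptor subunits Il6st, Il6ra and Lifr changed by 0.04, -0.09 and 0.12. Il6 was under FPKM 1 in both libraries and was not compared.

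Acute phase plasma proteins had 8 of 24 higher and 1 lower, with 1 of the higher with bounds apart, and their median of 0.38 was -0.16 on the TPM scale. Serpina3n had an FPKM of 203 in sham, 171 in WI and 1056 in IR (change 2.62). Saa1, Saa2 and Saa3, serum amyloid A proteins, changed by 1.38, 1.59 and 2.10, and Saa1 and Saa2 are close copies that can share reads. Sham (3414) exceeded WI (1248) and was near IR (3251) for Saa1. The fibrinogen chains Fga, Fgg and Fgb changed by 1.34, 1.19 and 1.03 with bounds that reached 0 in IR. Orm2 was lower (-1.31) and Hp and Trf changed by 0.37 and -0.06.

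Adhesion and endothelial activation genes had 10 of 18 higher and 1 lower (median 1.30). Of the higher members 7 entered through IR, and 3 of the 10 with FPKM of at least 1 in both libraries were higher (median 0.52). Thbd, thrombomodulin, had an FPKM of 3.58 in sham, 1.93 in WI and 21.5 in IR (change 2.94), and Plaur, the urokinase receptor, 0.441, 0.441 and 10.1. Sele, E-selectin on activated endothelium, had 0.0249, 0.034 and 2.49, and Icam1 changed by 1.63. Vcam1 had 30.5, 7.76 and 10.8 (change 0.43), and Itgal, the lymphocyte integrin subunit, was lower (-1.02).

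Interferon-induced GTPases, which are made under interferon-gamma and act against intracellular microbes, were the list with the lowest median. Of 17 compared, 0 were higher and 9 were lower, 5 with bounds apart, and the median was -1.05 (-1.61 on the TPM scale). Tgtp1 had an FPKM of 9.79 in sham, 46.7 in WI (bounds 24.0 to 69.3) and 6.08 in IR (3.13 to 9.02). Irgm2 had 13.7, 35.7 and 11.4, Igtp 21.5, 71.2 and 25.1, and Iigp1 95.3, 318 and 132. For these 4 genes WI was the high library and IR was near sham. Irgm1 (0.06) and Gbp5 (0.74) had changes above 0.

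Of the type I interferon stimulated genes 2 of 22 were higher and 1 was lower, with a median of 0.24 that was -0.26 on the TPM scale. Rsad2, viperin, had an FPKM of 3.69 in sham, 1.45 in WI and 9.46 in IR (change 2.09). MHC and antigen presentation genes had 0 of 15 higher and 5 lower (median -0.68), and the 5 were the class II genes H2-DMb1, H2-Aa, H2-Eb1, Cd74 and H2-Ab1, from -1.33 to -1.05, each with bounds that overlapped. H2-Aa had 98.2, 79.4 and 31.6 in the same order. The class I genes B2m, H2-K1 and H2-D1 changed by 0.09, 0.01 and 0.17.

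**Figure D3:**
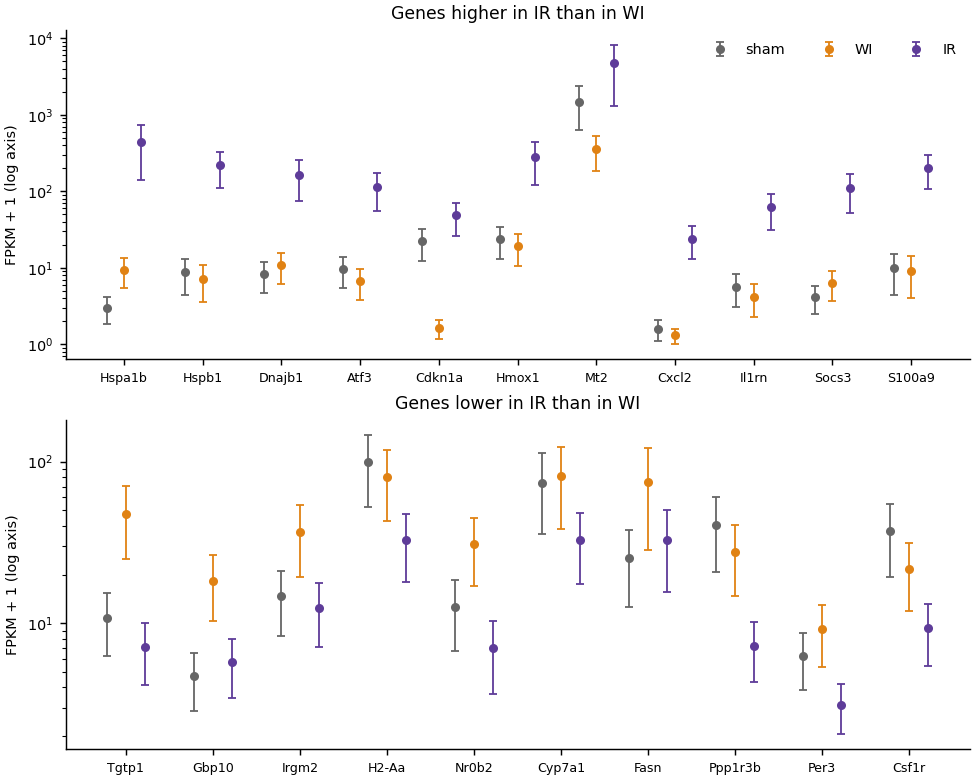
FPKM + 1 (vertical, log axis) with the deposited 95% bounds in the sham, WI and IR libraries for 11 genes higher (top) and 10 lower (bottom) in IR than in WI. Hspa1b goes from 8.36 in WI to 442 in IR, and Tgtp1 and Irgm2 are highest in WI.

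Markers of blood cells and of the cells of the liver were compared as lists. In bulk tissue fewer cells of a type and less RNA per cell cannot be told apart. Neutrophil markers had 14 of 15 compared higher, 13 with bounds apart, and 0 lower (median 2.10, 2.23 on the TPM scale). Of the higher members 9 entered through IR, and 5 of the 6 with FPKM of at least 1 in both libraries were higher (median 2.98). S100a9 had an FPKM of 8.86 in sham, 8.07 in WI and 204 in IR, and Retnlg 1.53, 1.18 and 36.6. The collagenase Mmp8 and the chemokine receptor Cxcr2 had 0.139, 0.0573 and 8.59, and 0.127, 0.163 and 3.65. The other member, Lcn2, which hepatocytes also make, had 121, 335 and 482 (change 0.52). Of the 22 markers listed, Mmp9, Camp, Ltf, Cd177, Mpo and Elane were under FPKM 1 in both libraries. The summed FPKM of the list was 157 in sham, 362 in WI and 1007 in IR, and Lcn2 made up most of it in sham and WI.

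Markers of Kupffer cells and macrophages had 2 of 16 higher (Cd14 at 4.14 and Spic at 1.81) and 1 lower (Csf1r at -1.21), with a median of -0.32. Clec4f, a marker of Kupffer cells, had an FPKM of 115 in sham, 65.3 in WI and 32.7 in IR (change -0.98). Lymphocyte markers had 0 of 5 counted in either direction (median -0.48), and 12 more were under FPKM 1. Fewer than 3 of the 5 had FPKM of at least 1 in both libraries. The others entered through WI, where they had to be lower, so this median supports no direction. Sinusoidal endothelial markers had 1 of 16 higher (6.25%, against 5.8% over all genes), Lyve1 (11.2, 2.73 and 33.4, change 3.21), and a median of -0.27. On the TPM scale 1 of these 16 was higher and 6 lower (median -0.78). Of the Kupffer cell and macrophage markers 2 of 16 were higher and 5 lower on that scale (median -0.84), where 1158 of all 11230 genes were lower. Stellate cell and matrix genes had 2 of 15 higher, Col4a1 (1.80) and Col4a2 (1.23), and 1 lower, Lrat (-1.06), with a median of 0.21 (-0.17 on the TPM scale). The bile duct list had 4 of 7 higher (median 1.11), namely Tff3, Krt8, Krt18 and Sox9, of which Krt8 and Krt18 are also keratins of hepatocytes, while Epcam (0.64) and Krt19 (0.30) were not counted. Tff3 and Sox9 entered through IR, and with FPKM of at least 1 in both libraries 2 of 5 were higher (median 0.64). The globin genes, the 3 compared of the erythroid list, were all higher (median 2.06), and Hba-a1 and Hba-a2 are copies that can share reads. The summed FPKM of the erythroid list was 1018 in sham, 693 in WI and 2719 in IR.

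Hepatocyte identity genes checked the tissue and had 2 of 17 higher, Foxa3 (1.14) and Apoa1 (1.05), and 0 lower, with a median of 0.33 that was -0.22 on the TPM scale. Hnf4a had an FPKM of 144 in sham, 122 in WI and 136 in IR. Alb was left out because its status was HIDATA (a locus with too many fragments to process) and it was listed at 0 in all 3 libraries. What part the neutrophil and globin markers take in the changes of other lists was not tested.

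**Figure D4:**
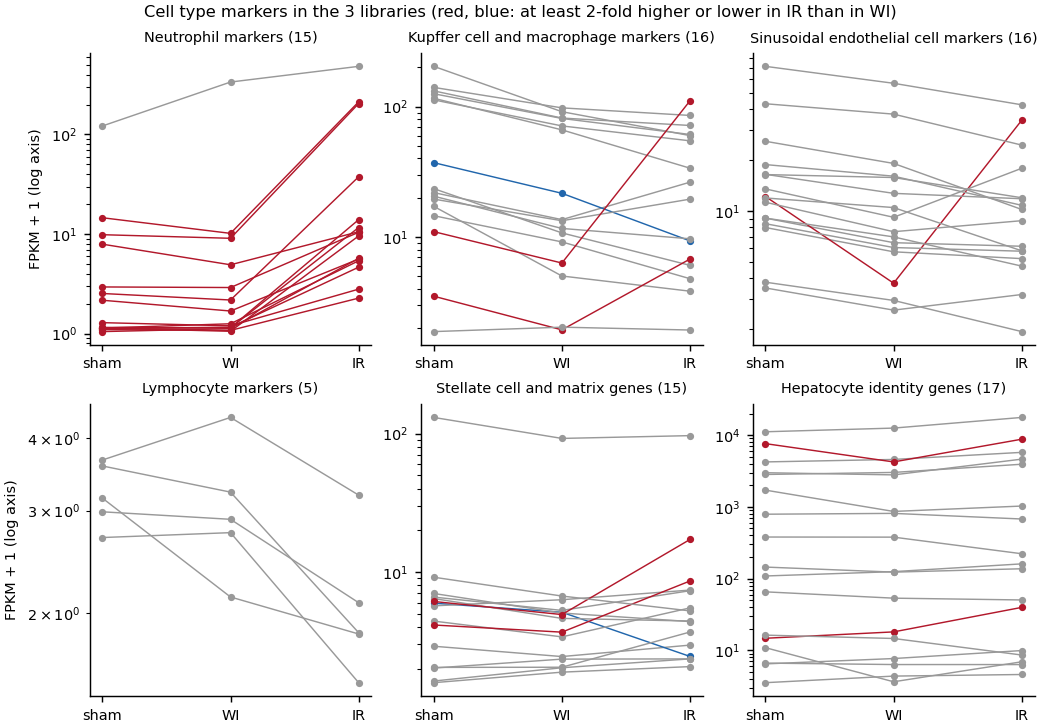
FPKM + 1 (vertical, log axis) of each compared marker of 6 cell types in sham, WI and IR, with members at least 2-fold higher in IR than in WI in red and lower in blue. Of 15 neutrophil markers 14 are red, while 2 of 16 Kupffer cell markers and 0 of 5 lymphocyte markers are. Members under FPKM 1 in WI or in IR could differ in 1 direction only.

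Cytoskeleton genes had 8 of 19 higher and 0 lower (median 0.90). Tubb6, a tubulin, had an FPKM of 3.55 in sham, 5.05 in WI and 41.1 in IR, and Krt8 and Krt18, the keratins of hepatocytes, had 112 and 86.4 in WI and 492 and 335 in IR. Tubb2a and Actg1 changed by 2.36 and 1.89. Matricellular, protease and YAP target genes had 11 of 17 higher and 0 lower (median 1.56). Of the higher members 6 entered through IR, and 5 of the 11 with FPKM of at least 1 in both libraries were higher (median 0.76). Adamts4, an aggrecanase, had 0.0103, 0.036 and 9.86 (change 3.39) and Thbs1, thrombospondin 1, 0.269, 0.612 and 11.015 (change 2.90). Cyr61 and Ctgf, the common reporters of YAP, changed by 0.57 and 0.04. In the BCL2 family 2 of 14 were higher, both of them survival genes, Bcl2l1 (1.89) and Mcl1 (1.16), and the median of 0.38 was -0.07 on the TPM scale.

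Clock genes went both ways, with 4 of 17 higher and 5 lower (median 0.13, -0.32 on the TPM scale). With FPKM of at least 1 in both libraries 2 of 15 were higher and 5 lower, and the median was -0.31. Nfil3, Nr1d1, Arntl and Bhlhe41 were higher (2.08, 1.44, 1.25 and 1.10), and the lower members included Per3, Per2, Tef and Hlf (-1.55, -1.12, -1.04 and -1.01). Per3 had an FPKM of 5.29 in sham, 8.15 in WI and 2.12 in IR. The IR livers were taken 120 min later after the start of ischemia, and the clock time of the samples is not stated. Glucocorticoid and fasting genes had 5 of 17 higher and 0 lower (median 0.57). Pdk4, which blocks pyruvate oxidation, had 135, 16.1 and 79.8, so WI was the low library, while G6pc had 335, 152 and 78.1.

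Cholesterol and fatty acid synthesis genes, targets of SREBP factors, had 1 of 23 higher and 5 lower, and 20 had a change below 0 (median -0.55, -1.09 on the TPM scale). The lower members included Elovl6 (-1.41), Fasn (-1.19), Acaca (-1.19) and Idi1 (-1.15), and none of the 5 had bounds apart. Fasn, fatty acid synthase, had an FPKM of 24.3 in sham, 74.3 in WI and 31.9 in IR, and Idi1, of the sterol pathway, had 99.3, 237 and 106. IR lay near sham and WI was the high library for both. Insig2, which holds SREBP in the endoplasmic reticulum, was the higher member (87.1, 25.6 and 103).

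In fatty acid oxidation and ketogenesis 4 of 24 were higher and 1 lower, and the median of 0.35 was -0.20 on the TPM scale. Acot2, Cyp4a10, Cyp4a14 and Acot1, targets of PPAR alpha, changed by 2.33, 1.83, 1.74 and 1.30, and Ppara itself was lower (-1.28, 43.2 in WI and 17.2 in IR). Bile acid genes had 1 of 17 higher and 3 lower (median -0.09). Cyp7a1, the rate-limiting enzyme, had 73.0, 80.1 and 31.6, its repressor Nr0b2 11.6, 30.0 and 5.99, and the canalicular exporter Abcc2 87.3, 94.3 and 42.6. Cyp7b1 was higher (8.31 in sham, 10.02 in WI and 75.004 in IR) and is male-biased.

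The other metabolic lists are set beside the shares over all genes, 5.8% higher and 1.36% lower. Urea cycle and amino acid genes had 1 of 16 higher (6.25%, near the share over all genes), Got1 (1.07), with a median of 0.11 (-0.44 on the TPM scale). Complex I subunits had 1 of 31 higher and 30 above 0 (median 0.36, -0.18 on the TPM scale), and proteasome subunits 0 of 31 higher and 31 above 0 (median 0.38, -0.16 on the TPM scale). Cytochrome P450 genes of families 1 to 3 had 0 of 22 higher and 3 lower (13.6%), Cyp2b9, Cyp2a5 and Cyp2c37 (median -0.11). Cyp2b9 is also on the sex-biased list, and without that list 2 of 18 were lower. On the TPM scale, with that list kept, 0 of 22 were higher and 7 lower (median -0.63), where 1158 of all 11230 genes were lower. Coagulation and complement genes had 4 of 23 higher (17.4%), C6, C5ar1, C8b and C9 (median 0.12, -0.42 on the TPM scale). C6 and C8b are also on the sex-biased list, and without that list 2 of 20 were higher.

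The sex-biased liver genes, which growth hormone pulses set apart in males and females, had 27 of 64 higher and 8 lower (median 0.30, -0.16 on the TPM scale). With FPKM of at least 1 in both libraries 18 of 53 were higher and 7 lower, and the median was -0.18. Those higher included the male-biased Cyp4a12a (0.0792 in sham, 0.216 in WI and 57.4 in IR), Hsd3b5, Selenbp2 and Elovl3, and those lower the female-biased Sult2a1 and Cyp2b9. With Xist low and Y-linked genes present in IR alone, sex and reperfusion cannot be told apart for them. Leaving this list out kept 567 higher and 131 lower genes. The close copies Cyp4a12a and Cyp4a12b, and Gstp1 and Gstp2, can share reads, so their separate values are uncertain.

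Transcript length moved with the change. Over 9587 genes with a length (93.6%, from the NCBIM37 annotation by symbol), the median change went from 0.22 in the shortest of 5 equal groups, through 0.12, 0.04 and -0.05, to -0.17 in the longest. The share of genes at least 2-fold higher went from 7.19% to 3.39%, and of genes lower from 1.04% to 2.40%. The part of length in any list was not tested beyond 1 adjustment. With the median of its length group subtracted from each gene, 528 were higher and 121 lower, and interferon-induced GTPases had a median of -0.91 and neutrophil markers 2.05. Other lists moved more under this adjustment. Hypoxia and HIF target genes went to 6 of 15 higher, clock genes to 5 higher and 2 lower, and glycolysis enzymes to 0 of 19 higher. The median of the complex I subunits went to 0.15, that of the BCL2 family to 0.16 and that of the urea cycle list to -0.01.

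**Figure D5:**
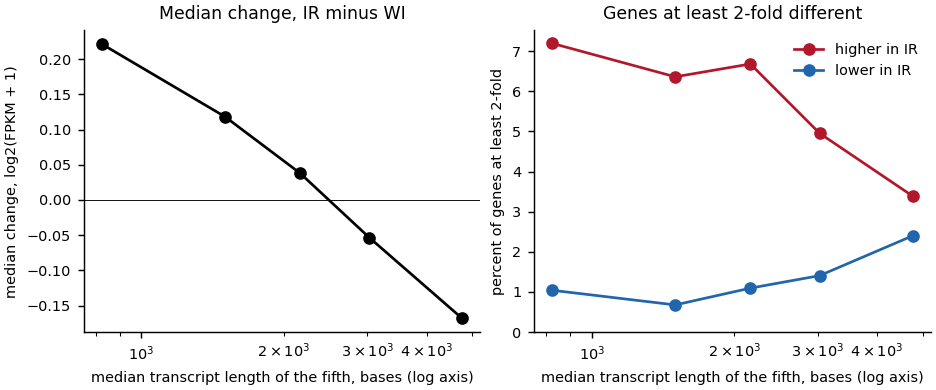
Median change from WI to IR (left, log2 scale) and percent of genes at least 2-fold higher or lower (right) by group of transcript length (horizontal, log axis). The median falls from 0.22 in the shortest group to -0.17 in the longest.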

How the data were processed

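Liver mRNA of 3 groups of mice (sham, WI and IR), 1 library each, was sequenced on Illumina HiSeq2000. The authors mapped the reads to mm10 with TopHat2 2.0.9 and computed FPKM with Cufflinks 2.0.2 (Cuffdiff, default parameters). The deposited tables hold FPKM per gene with 95% bounds and a status, and no counts, so the depth on a gene is unknown. For the whole libraries, the study reports fewer uniquely aligned read pairs, and a lower share of pairs aligned, in IR than in WI. For 115 genes at the lowest step of FPKM in both libraries, that step was worth 1.40 times more in IR than in WI.

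The change was log2(FPKM + 1), IR minus WI, with a pseudocount of 1, which understates the change of low genes. Genes needed FPKM of at least 1 in WI or IR. Left out were 12793 genes under that minimum, 280 on chromosome X or Y, 11 Mup genes and 33 with another status. No test was run. Bounds were called apart when they did not overlap, and a bound lay at a median distance of 51.8% of FPKM in WI and 51.7% in IR. The members and lists (44) were chosen with earlier results of these data known, and the motif searches and the groups in the closing section were put together after values were seen.

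Named were the 15 largest rises and falls with bounds apart, the 4 members of each list with the largest change and its most abundant uncounted member, genes at 0 in 1 library and at least 5 in the other, and 3 genes on each side of the threshold. Other list members named were chosen after their values were seen. Alternatives were pseudocounts of 0.1 and 0.01, other filters and fold thresholds, rescaling the libraries (TPM or median ratio), keeping or leaving out sex-linked or sex-biased genes, bounds apart, and, chosen after seeing the data, the adjustment for transcript length. Scripts (Python 3.11.15, numpy 2.4.6, pandas 2.3.3, matplotlib 3.10.9) were tested on simulated data. Some genes that the rule names are not reported here.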

Additional observations from a re-analysis of the deposited data

Results flagged for a closer look

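Y-linked genes were present in the library labelled IR and near 0 in the others, outside the genes compared. Ddx3y had an FPKM of 8.58 in IR, Eif2s3y 13.2, Uty 1.28 and Kdm5d 0.669, against 0 in sham for all 4 and at most 0.0085 in WI. The labels give male for all 3 libraries. The Mup genes, also left out, summed to 89648 FPKM in IR against 10271 in WI and 11100 in sham, and 6 of the 20 had the status HIDATA in IR and were listed at 0 there, so the sum in IR is incomplete. No explanation was weighed for either.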

How the results depend on the processing

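The counts of 594 higher and 139 lower genes depended on scale, pseudocount and threshold. Rescaling to TPM gave 365 higher, 1158 lower and 9 lists with a median of at least 1 in size, against 15, and over the genes of the main comparison, an alternative chosen after seeing the data, 360 and 1138. Pseudocounts of 0.1 and 0.01 gave 817 and 850 higher and 348 and 395 lower genes, of which 70.1% and 68.3% were higher. Thresholds of 1.5-fold gave 1292 higher and 765 lower, 4-fold gave 158 and 8, and bounds apart gave 321 and 33. The cause of these moves was not tested, apart from those that follow from the threshold itself. Other filters, the median ratio, sex-linked genes kept, sex-biased genes left out and the length adjustment gave 441 to 617 higher and 110 to 159 lower genes. The median of 15 of 43 lists took the other sign under TPM, of 2 with FPKM of at least 1 in both (clock and sex-biased), of 1 with FPKM of at least 5 (clock, -0.52) and of 1 under the length adjustment (urea cycle). The 159 named genes past 2-fold kept their sign wherever they were fitted. Of the 77 named genes under 2-fold, 19 took the other sign under TPM, 3 under the length adjustment and 1 under the median ratio. No paired analysis was possible because each group has 1 library, and leaving out a replicate was not possible for the same reason.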

Other observations

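Some groups were put together after the values had been seen, from genes noticed among the changes, and they are descriptions with no test. Over all genes compared 53.1% had a change above 0. WNT target genes of pericentral hepatocytes, which surround the central vein, had 16 of 16 compared members with a change below 0 (median -0.55, -1.08 on the TPM scale) and 3 at least 2-fold lower, Tbx3, Slc1a2 and Rnf43. Axin2 had an FPKM of 0.843 in sham, 1.27 in WI and 0.153 in IR, and Lgr5 had 0.794, 1.62 and 0.383, in both with bounds apart between WI and IR. The members were put on the list with their values known. Axin2, Lgr5, Tbx3, Znrf3 and Nkd1 were under FPKM 1 in IR and entered through WI, where they had to be lower. The count and median of this group therefore support no direction. Of genes that target or make glycogen, 11 of 12 had a change below 0 (median -0.42), and Ppp1r3e among them entered through WI.

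Host genes of small nucleolar RNAs had 9 of 9 compared members above 0, also on the TPM scale, and 4 at least 2-fold higher (median 0.93), of which Snhg12 alone had bounds apart. Snhg4 and Snhg7 were under FPKM 1 in WI and entered through IR, where they had to be higher, so for them the direction was fixed. Snhg12 had 13.0 in sham, 7.11 in WI and 28.3 in IR. Claudins, connexins and tight junction genes had 2 of 11 at least 2-fold higher (median 0.58). Cldn14, a claudin, had 6.17, 6.01 and 94.6 (change 3.77) and Gja1 2.83, 2.26 and 10.0. Polyamine genes included Odc1, the first enzyme of the pathway (change 1.52), and Smox (1.69), with 2 of 8 at least 2-fold higher (median 0.59), but the bounds of Smox reached 0 in both libraries, so its change is undetermined. Zinc, iron and heme genes had 3 of 15 at least 2-fold higher, Hmox1, Slc39a14 and Hamp, all on other lists as well, and a median of 0.40 that was -0.15 on the TPM scale.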
